A study of Mus musculus with 9 samples.

Results

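The genes described here are 7 mouse genes of the Ly6 family of surface antigens, Ly6a, Ly6c1, Ly6c2, Ly6d, Ly6e, Ly6g and Ly6i. They were taken by gene symbol from the expression tables of 9 RNA-seq libraries, in which each had 1 identifier, so the members are 7 of 55274 identifiers. All lie on chromosome 15 of GRCm38, from 74762056 to 75159126, an interval of 397071 bp. At least 1 FPKM in at least 3 libraries, the filter for testing, was reached by 6 of the 7 members and by 13493 identifiers in all. Ly6d did not reach it. FPKM scale fragments by transcript length and by the mapped fragments of the library, so levels may be compared between genes within a library.

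Ly6 genes encode small proteins of a single cysteine-rich domain, folded into 3 loops and held on the outer face of the cell membrane by a glycosylphosphatidylinositol (GPI) anchor. Several of them are used to name blood cells by flow cytometry. Ly6A is Sca-1, a marker of hematopoietic stem and progenitor cells, Ly6C marks monocytes and other myeloid cells, Ly6G marks neutrophils, and the Gr-1 antibody clone RB6-8C5 binds Ly6G and also Ly6C. Ly6D marks a class of early lymphoid progenitors. Ly6A, Ly6C and Ly6E are known to rise with interferon in many cell types.

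The groups were NRASG12D, NUP98-NSD1 and NUP98-NSD1+NRASG12D, with 3 libraries each. Every library came from bone marrow of female C57BL/6J mice, 6 to 8 weeks old, treated with 5-fluorouracil at 150 mg/kg and harvested 4 days later. The cells were stimulated for 48 h and then infected with retroviruses that carry NRASG12D, an active form of the RAS protein NRAS, with a BFP reporter, NUP98-NSD1, a leukemia fusion of a nuclear pore protein and a histone methyltransferase, with a GFP reporter, or both. All groups were sorted on the reporter and expanded in DMEM with 15% FBS, human IL-6 at 10 ng/mL, murine IL-3 at 6 ng/mL and murine SCF at 20 ng/mL, and no library of untransduced cells was among those used here. Expression from a viral promoter, growth in IL-3 and SCF and selection by reporter therefore apply to every value. The labels do not say whether the libraries of a group came from separate cultures or mice, so the p-values measure only the spread between these libraries.

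Depth was estimated at 22450000 to 35350000 fragments per library, from the steps between low FPKM values. As a check of the labels, Nras had 348 to 479 FPKM in the NRASG12D libraries, 47.7 to 51.2 FPKM without that virus, and 245 to 701 FPKM with both viruses. Nup98 had 9.12 to 11.1 FPKM without the fusion and 11.9 to 20.2 FPKM with it, and Nsd1 had 9.98 to 16.2 FPKM over all 9 libraries. The blood cell genes Ptprc and Spi1 were above 60 FPKM in all 9 libraries. Of 10 mast cell markers, Cpa3, a protease gene, was listed at 0 in all 3 NRASG12D libraries and at 12564 to 14378 FPKM under the fusion alone. Whether this 0 is an absence of Cpa3 RNA or a failed estimate of its level cannot be told from FPKM. Without Cpa3 the other 9 summed to 29083 to 31553 FPKM in the NRASG12D libraries, to 13858 to 17610 FPKM under the fusion alone and to 469 to 2776 FPKM under both, and no groups overlapped. With Cpa3 the sums were 27271 to 31988 FPKM under the fusion alone and 749 to 4597 FPKM under both, so it is Cpa3 that brings the first 2 groups level. Of 8 neutrophil markers the sum was 0.478 to 8.31, 646 to 1149 and 2908 to 16604 FPKM in the same order, and 3 of these markers were at 0 throughout NRASG12D. Replicate 3 of NUP98-NSD1+NRASG12D held the highest neutrophil sum, and replicate 2 the highest sum of 40 interferon genes, 4095 FPKM against 513 to 1838 in the other libraries.

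In the fusion cultures the balance of the Ly6 genes differed from that in NRASG12D. Ly6a was 0.805, 1.44 and 4.06 times Ly6c2 in NUP98-NSD1 replicates 1 to 3. In NUP98-NSD1+NRASG12D it was 0.250, 0.563 and 0.0486 times Ly6c2. Ly6a fell, Ly6c2 went from at most 1.01 FPKM to at least 245 FPKM, Ly6c1 rose less steeply, and Ly6e, Ly6g and Ly6i passed no test. Between NUP98-NSD1 and NRASG12D, 3 of the 6 tested members passed the threshold of an adjusted p of 0.05 (limma, Benjamini-Hochberg over all 13493 genes), 2 higher and 1 lower. Of all tested genes 52.1% passed in this comparison, 42.2% higher and 9.98% lower, so the count of members is near the background. NUP98-NSD1+NRASG12D against NRASG12D gave the same count, 2 higher and 1 lower, where 38.3% of all genes passed, 24.2% higher and 14.1% lower. Between the 2 fusion groups 2 members were higher and 0 lower, where 8.61% of all genes passed, 2.30% higher and 6.31% lower. Groups did not overlap for 4, 5 and 3 of the 6 members in this order, against 64.2%, 58.6% and 31.4% of all tested genes. Over all 13493 genes the log2 fold changes had medians of 0.27, 0.23 and -0.06, in the same order. After median-ratio scaling these medians were 0.012, 0.059 and 0.037, and the share of called genes that were higher went from 80.9% to 52.3%, from 63.1% to 53.1% and from 26.8% to 33.0%. Under quantile normalization it was 43.2%, 41.3% and 36.7%. In bulk RNA fewer cells of a type and less RNA per cell cannot be told apart.

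**Figure D1:**
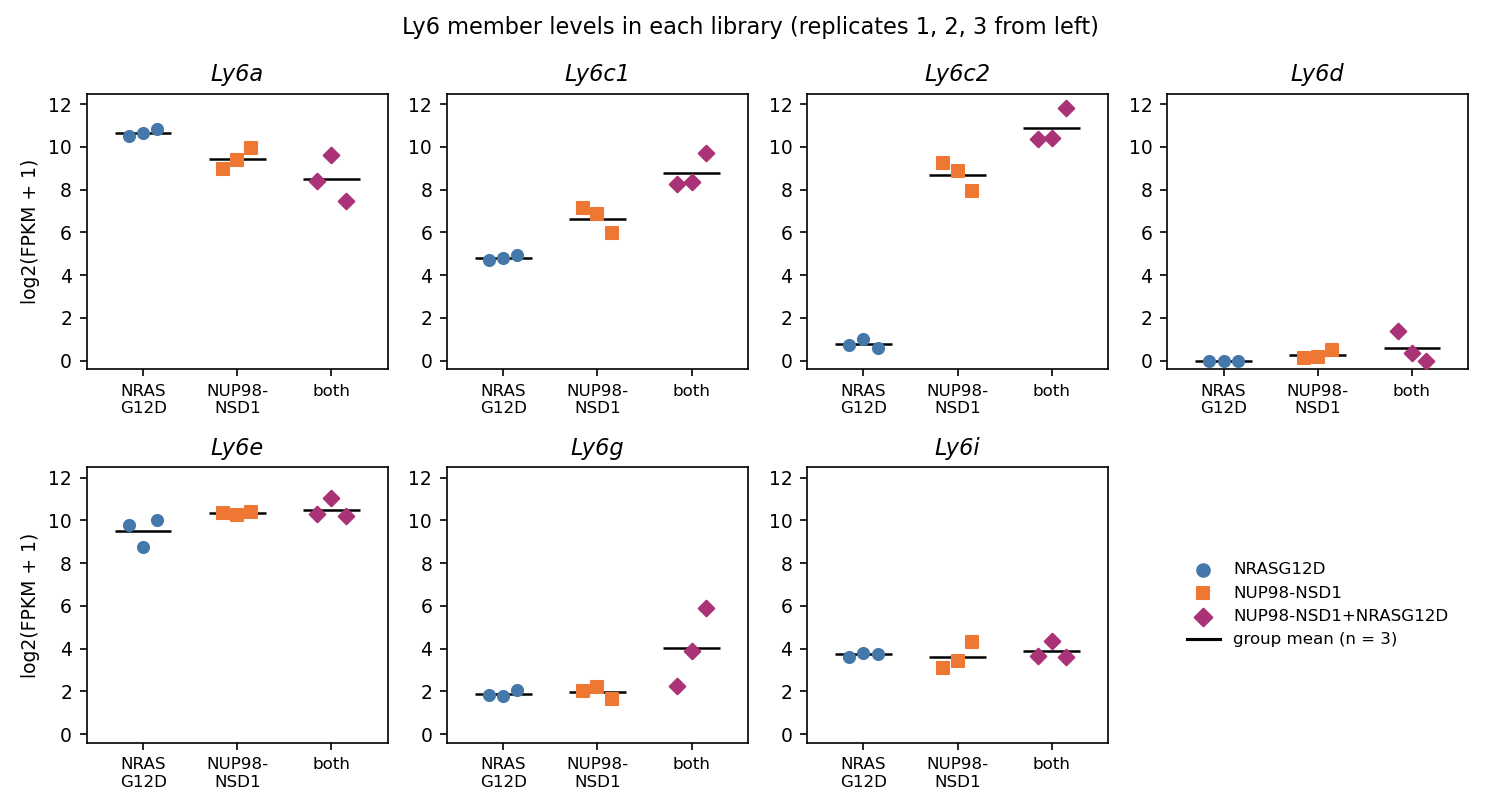
Levels of the 7 members as log2(FPKM + 1) on the vertical axis, with a point per library, replicates 1, 2 and 3 from left in each group, and a line at the group mean ("both" is NUP98-NSD1+NRASG12D). Ly6c2 lies near the floor in the 3 NRASG12D libraries and at 245 to 3674 FPKM in the other 6, while Ly6a lies at 1482 to 1857 FPKM in NRASG12D and at 179 to 993 FPKM elsewhere.

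Ly6a (ENSMUSG00000075602.10, from 74994877 to 74998031 on the minus strand) encodes Sca-1. Its level was 1482, 1587 and 1857 FPKM in NRASG12D replicates 1 to 3, 492, 671 and 993 FPKM in NUP98-NSD1, and 337, 779 and 179 FPKM in NUP98-NSD1+NRASG12D. All 3 NRASG12D libraries stood above the other 6, and the fusion groups overlapped. In NRASG12D it was among the most abundant transcripts, ranked 19 to 26 by FPKM. Under the fusion alone the rank was 49 to 152, and under both it was 86 to 641.

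The group means were 1642 ± 194, 719 ± 254 and 431 ± 311 FPKM (SD, n = 3). In NUP98-NSD1, Ly6a fell against NRASG12D with a log2 fold change of -1.24 (SE 0.24, adjusted p = 0.00597), which is -1.52 relative to the median gene. The call was lost in a fit of all 9 libraries (adjusted p = 0.0829). In NUP98-NSD1+NRASG12D it was lower than in NRASG12D by a log2 fold change of -2.18 (SE 0.50, adjusted p = 0.0145). Without NRASG12D replicate 3 the adjusted p was 0.0567, and without the filter on low values it was 0.0625. The fusion groups differed by a log2 fold change of -0.93 (SE 0.54, adjusted p = 0.370), which is within their spread. In this gene the spread grew from group to group, from 1.25-fold between the lowest and the highest NRASG12D library to 2.02-fold and 4.36-fold in the fusion groups. The mast cell marker sum without Cpa3 had the same order of groups as Ly6a, and of its genes Cma1 fell by 1.31 (adjusted p = 0.00140) and Tpsb2 by 1.23 (adjusted p = 0.00402) on the log2 scale in NUP98-NSD1 against NRASG12D, while Mcpt4, Mcpt8 and Hdc rose there by 2.68, 4.37 and 4.31. The part of mast cell content in the Ly6a values was not tested.

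Ly6c1 and Ly6c2 encode the 2 forms of the Ly6C antigen. They lie 59327 bp apart on the minus strand, Ly6c1 (ENSMUSG00000079018.10) from 75044018 to 75048830 and Ly6c2 (ENSMUSG00000022584.14) from 75108158 to 75111970. Between them the coding sequences of 393 bases differ at 9 bases, so 97.7% are identical, and the longest run without a difference is 188 bases, longer than a read of 50 bases. The coding exons that tell them apart are printed below from the first-named GENCODE M21 transcript of each gene (GRCm38), with the bases that differ in capitals.
Ly6c1, first coding exon, chr15:75048442-75048511, minus strand: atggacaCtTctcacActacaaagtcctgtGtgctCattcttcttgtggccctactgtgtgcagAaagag
Ly6c2, first coding exon, chr15:75111598-75111667, minus strand: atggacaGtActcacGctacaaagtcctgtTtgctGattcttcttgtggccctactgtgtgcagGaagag
Ly6c1, last coding exon, chr15:75045405-75045610, minus strand: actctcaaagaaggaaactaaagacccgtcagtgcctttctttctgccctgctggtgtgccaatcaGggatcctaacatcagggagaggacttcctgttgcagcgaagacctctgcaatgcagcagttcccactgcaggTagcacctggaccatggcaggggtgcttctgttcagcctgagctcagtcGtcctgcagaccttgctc
Ly6c2, last coding exon, chr15:75108546-75108751, minus strand: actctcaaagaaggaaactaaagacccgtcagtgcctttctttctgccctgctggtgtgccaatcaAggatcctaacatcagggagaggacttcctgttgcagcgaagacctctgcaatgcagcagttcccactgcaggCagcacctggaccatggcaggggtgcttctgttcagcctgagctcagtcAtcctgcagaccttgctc
The first coding exon holds 6 of the 9 differences in 70 bases, and the last holds 3 in 206 bases. The middle coding exon has none in 117 bases. Below it is set beside the same exon of Ly6a, Ly6i and Ly6g, to show how close the cluster's members are, with capitals where a gene differs from Ly6c1.
Ly6c1 and Ly6c2, middle coding exon, chr15:75047353-75047469 and chr15:75110511-75110627, minus strand: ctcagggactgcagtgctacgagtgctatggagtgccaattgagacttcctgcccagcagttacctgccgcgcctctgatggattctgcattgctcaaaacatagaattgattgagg
Ly6a, middle coding exon, chr15:74996452-74996568, minus strand: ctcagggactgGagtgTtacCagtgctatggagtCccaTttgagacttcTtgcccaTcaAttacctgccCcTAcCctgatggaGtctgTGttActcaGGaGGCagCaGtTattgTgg
Ly6i, middle coding exon, chr15:74981886-74982002, minus strand: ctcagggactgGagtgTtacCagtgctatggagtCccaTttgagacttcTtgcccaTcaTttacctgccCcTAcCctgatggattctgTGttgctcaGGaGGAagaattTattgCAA
Ly6g, middle coding exon, chr15:75156694-75156810, plus strand: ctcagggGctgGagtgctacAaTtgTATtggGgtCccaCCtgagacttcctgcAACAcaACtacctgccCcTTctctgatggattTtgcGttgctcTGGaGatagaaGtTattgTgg
Ly6a differs from Ly6c1 at 25 of the 117 bases, Ly6i at 23 and Ly6g at 29. Over the whole coding sequence the identity of Ly6c1 was 84.7% to Ly6a, 84.9% to Ly6i and 83.4% to Ly6g, and in alignments with Ly6d or Ly6e no member had an identical run of more than 10 bases.

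Ly6c2 had 0.654, 1.01 and 0.508 FPKM in the NRASG12D libraries, so it needed the fusion libraries to reach the filter. In NUP98-NSD1 it had 611, 465 and 245 FPKM, and in NUP98-NSD1+NRASG12D 1345, 1384 and 3674 FPKM. No groups overlapped, and the order NRASG12D, NUP98-NSD1, NUP98-NSD1+NRASG12D held for every library. In NUP98-NSD1+NRASG12D replicate 3 Ly6c2 had rank 11, where in NRASG12D it ranked 12271 to 13474. The log2 fold change was 7.91 (SE 0.31, adjusted p = 3.31e-05) in NUP98-NSD1 and 10.12 (SE 0.39, adjusted p = 2.93e-05) in NUP98-NSD1+NRASG12D, each against NRASG12D. Both calls held in all 14 alternatives, in which the first estimate ran from 4.14 to 9.01 and the second from 6.34 to 11.22. The lowest of each came from summing Ly6c1 with Ly6c2.

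Ly6c1 had 25.1, 26.6 and 30.2 FPKM in NRASG12D, 139, 114 and 62.1 FPKM in NUP98-NSD1, and 310, 328 and 854 FPKM in NUP98-NSD1+NRASG12D. Its libraries kept the same order of groups, with no overlap, but it started from a higher level. The log2 fold change against NRASG12D was 1.83 (SE 0.27, adjusted p = 0.00243) in NUP98-NSD1 and 3.97 (SE 0.38, adjusted p = 0.000445) in NUP98-NSD1+NRASG12D, or 1.56 and 3.75 relative to the median gene. Both passed in all 13 alternatives.

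Between the fusion groups both Ly6C genes were higher with NRASG12D, Ly6c1 by a log2 fold change of 2.14 (SE 0.47, adjusted p = 0.0389) and Ly6c2 by 2.20 (SE 0.51, adjusted p = 0.0444). These calls lie close to the threshold. The adjusted p of Ly6c1 rose to 0.0569 to 0.136, and that of Ly6c2 to 0.0600 to 0.160, when any of NUP98-NSD1 replicates 1, 2 and 3 or NUP98-NSD1+NRASG12D replicates 2 and 3 was left out. Without NUP98-NSD1+NRASG12D replicate 3, the library with the highest neutrophil sum, the estimates were 1.67 and 1.73. The part of neutrophil content in this difference was not tested.

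**Figure D2:**
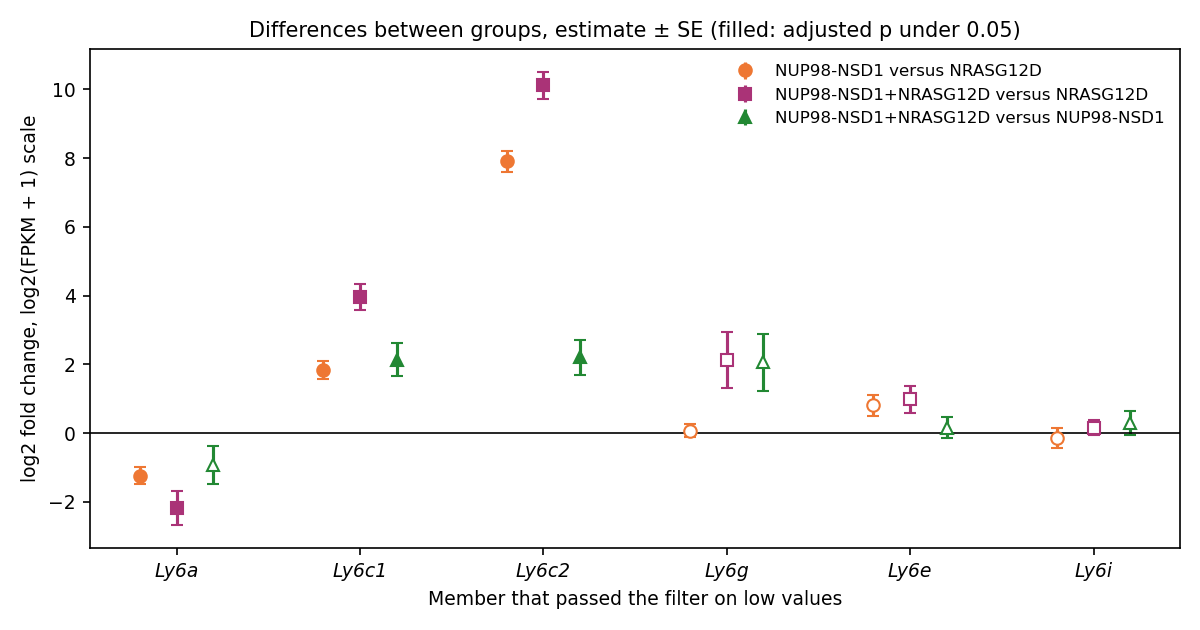
Log2 fold change on the log2(FPKM + 1) scale (vertical axis) of the 6 tested members (horizontal axis) in the 3 comparisons, with the standard error as bars and filled symbols where the adjusted p was under 0.05. Ly6c2 reached 7.91 and 10.12 against NRASG12D, Ly6a lay at -1.24 and -2.18, and Ly6g, Ly6e and Ly6i have open symbols in all comparisons.

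The balance of the Ly6C pair differed between cultures. Ly6c2 made up 2.54%, 3.64% and 1.65% of the summed Ly6c1 and Ly6c2 FPKM in NRASG12D libraries, 81.5%, 80.3% and 79.8% in NUP98-NSD1, and 81.3%, 80.8% and 81.1% in NUP98-NSD1+NRASG12D. The means were 2.61 ± 0.997%, 80.5 ± 0.870% and 81.1 ± 0.229% (SD, n = 3). A two-sided exact permutation test over libraries gave p = 0.1 for either fusion group against NRASG12D, the smallest p that 3 against 3 libraries allow, and 0.150 after adjustment over the 3 pairs of groups. The 2 fusion groups differed in this share by 0.589 percentage points (exact p = 0.400).

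While Ly6c2 ran from 245 to 3674 FPKM over the 6 fusion libraries, Ly6c1 stayed at 0.228 to 0.254 of it. In NRASG12D, Ly6c1 was instead 26.4 to 59.5 times Ly6c2, and it was 1.70%, 1.68% and 1.63% of Ly6a. The 50-base stretches of the annotated transcripts show what reads can be shared. Of those in the first-named Ly6c1 transcript, 31.7% also occur in Ly6c2 and 5.03% in Ly6a, and over all Ly6c1 transcripts 21.5% occur in Ly6c2 and 11.1% in Ly6a. Ly6c2 has 0.110% in common with Ly6a. FPKM hold no read positions, so the part of Ly6c2 or Ly6a reads in the Ly6c1 values was not tested, and the level of Ly6c1 is uncertain in all 9 libraries. The sum of both genes, which does not depend on how reads were divided within the pair, rose by a log2 fold change of 4.14 in NUP98-NSD1 (adjusted p = 0.000224) and 6.34 in NUP98-NSD1+NRASG12D (adjusted p = 0.000101) against NRASG12D. The fusion groups differed by 2.19 in this sum (adjusted p = 0.0452).

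**Figure D3:**
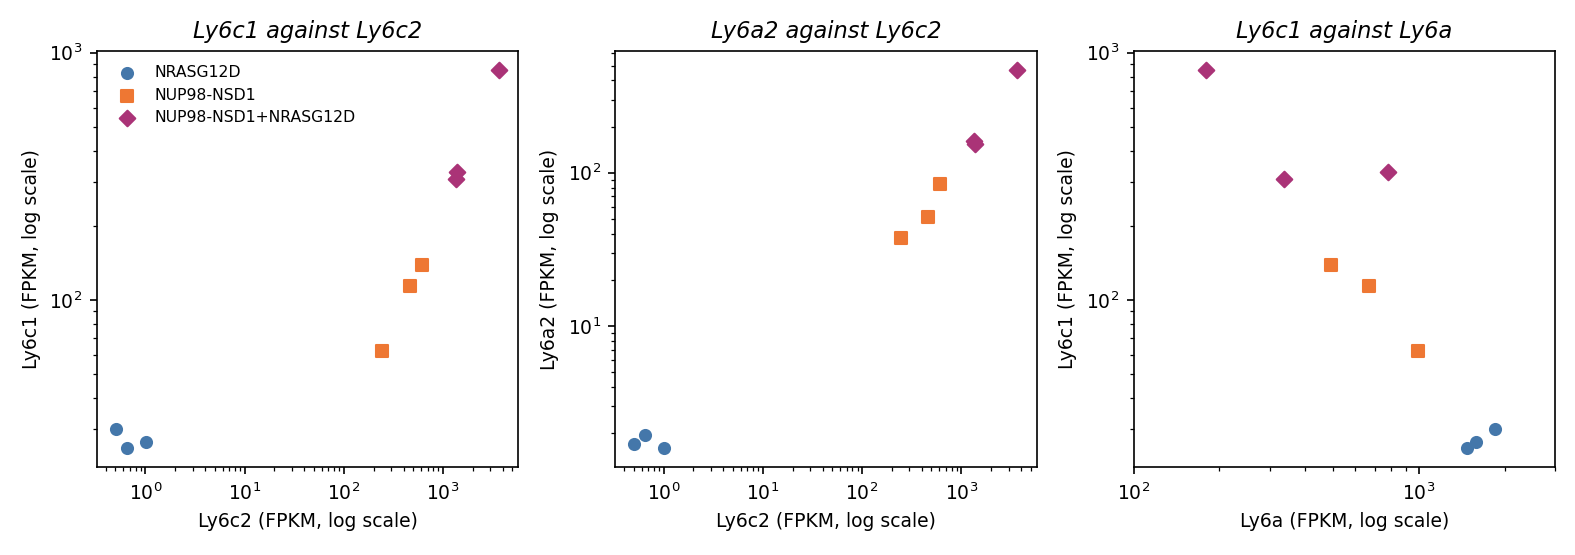
Ly6c1 against Ly6c2 (left), Ly6a2 against Ly6c2 (middle) and Ly6c1 against Ly6a (right), in FPKM on log axes with a symbol per library. In the 6 fusion libraries Ly6c1 and Ly6a2 keep near-constant ratios to Ly6c2, at 0.228 to 0.254 and 0.111 to 0.154, and the 3 NRASG12D libraries lie apart.

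Next to Ly6c2, and before Ly6g, lies Ly6a2 (75131377 to 75135128, minus strand), annotated as a transcribed pseudogene. It is not a member but had the same order of groups as Ly6c2, with smaller log2 fold changes against NRASG12D. Its level was 1.95, 1.59 and 1.69 FPKM in NRASG12D, 83.9, 51.5 and 37.7 FPKM in NUP98-NSD1, and 161, 155 and 470 FPKM in NUP98-NSD1+NRASG12D. Against NRASG12D the log2 fold change was 4.34 (SE 0.26, adjusted p = 0.000121) and 6.38 (SE 0.42, adjusted p = 0.000124), and between the fusion groups it was 2.04 (SE 0.49, adjusted p = 0.0504). Ly6a2 was 0.111 to 0.154 of Ly6c2 in the fusion libraries, but 2.99, 1.58 and 3.34 times Ly6c2 in NRASG12D replicates 1 to 3. Only 0.441% of the 50-base stretches of its first-named transcript occur in Ly6c2, against the 31.7% given above for Ly6c1. Of the same Ly6a2 stretches 2.94% occur in Ly6a, 2.64% in Ly6i and 11.3% in any other gene. The part of shared reads in the Ly6a2 values was not tested.

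The promoters of these genes are alike. They are printed below because Ly6c1, Ly6c2 and Ly6a2 rose together while Ly6g, with a similar promoter, passed no test. Each line gives 250 bases before and 50 after an annotated start, from RefSeq on GRCm38.p6, and 3 of the 7 members had an entry. Capitals mark the letters AGGAAGT on either strand, a core that ETS factors such as PU.1 bind.
Ly6c2 promoter, chr15:75111922-75112221, minus strand: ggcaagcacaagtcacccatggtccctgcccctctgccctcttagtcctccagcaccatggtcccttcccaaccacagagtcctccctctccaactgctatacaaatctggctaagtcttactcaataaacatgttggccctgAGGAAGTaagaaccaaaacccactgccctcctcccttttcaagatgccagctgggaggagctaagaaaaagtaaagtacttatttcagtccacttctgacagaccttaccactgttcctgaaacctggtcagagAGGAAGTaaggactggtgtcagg
Ly6a2 promoter, chr15:75135079-75135378, minus strand: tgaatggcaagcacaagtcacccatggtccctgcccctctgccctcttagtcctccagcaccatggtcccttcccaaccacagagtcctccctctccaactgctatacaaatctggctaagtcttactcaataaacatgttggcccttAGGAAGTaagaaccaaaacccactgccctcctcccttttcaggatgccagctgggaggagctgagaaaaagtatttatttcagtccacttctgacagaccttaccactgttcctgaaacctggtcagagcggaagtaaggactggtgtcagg
Ly6c1 promoter, chr15:75048788-75049087, minus strand: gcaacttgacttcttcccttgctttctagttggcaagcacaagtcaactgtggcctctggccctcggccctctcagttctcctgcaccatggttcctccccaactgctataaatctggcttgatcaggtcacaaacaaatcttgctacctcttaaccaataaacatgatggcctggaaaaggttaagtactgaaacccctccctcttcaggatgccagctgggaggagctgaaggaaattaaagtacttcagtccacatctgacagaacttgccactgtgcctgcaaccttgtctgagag
Ly6g promoter, chr15:75155011-75155310, plus strand: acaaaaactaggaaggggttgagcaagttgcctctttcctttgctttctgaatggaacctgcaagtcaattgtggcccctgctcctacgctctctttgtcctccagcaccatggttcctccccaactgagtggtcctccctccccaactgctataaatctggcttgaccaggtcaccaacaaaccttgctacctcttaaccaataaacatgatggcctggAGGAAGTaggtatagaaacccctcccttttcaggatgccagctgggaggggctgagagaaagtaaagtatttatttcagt
The promoters of Ly6c2 and Ly6a2 were identical at 291 of 295 aligned bases, or 98.6%. Ly6c1 was 82.3% identical to Ly6c2 over 260 aligned bases and 86.4% to Ly6g over 250. AGGAAGT starts 107 bases before and 28 bases into the Ly6c2 transcript, 102 bases before that of Ly6a2 and 30 bases before that of Ly6g, and was not found in this window of Ly6c1. Of 32851 RefSeq promoters of this length, 9.35% hold it. A second search covered TTCNNNGAA, the form bound by STAT dimers (8.30% of promoters), GAAANNGAA, part of an interferon response element (8.56%), TTGCNNAAT of C/EBP factors (2.40%) and AGATAA of GATA factors (11.2%), all on both strands. None of these letters were found in the 4 windows, which says nothing about binding elsewhere. Spi1, which encodes PU.1, had 72.6 to 81.3 FPKM in the NRASG12D libraries, 108 to 192 FPKM under the fusion alone and 235 to 274 FPKM under both. This was the order of groups of Ly6c2, and also of Ly6c1, whose window lacks AGGAAGT. The part of PU.1 in the levels of these genes was not tested.

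Ly6g (ENSMUSG00000022582.4, from 75155240 to 75159126 on the plus strand) encodes the neutrophil antigen. Its level was 2.53, 2.45 and 3.24 FPKM in NRASG12D, 3.10, 3.67 and 2.10 FPKM in NUP98-NSD1, and 3.76, 14.0 and 59.6 FPKM in NUP98-NSD1+NRASG12D. All libraries but the last 2 lie below 4 FPKM, and a 15.8-fold range within the third group rests on replicates 2 and 3. Against NRASG12D the log2 fold change of NUP98-NSD1+NRASG12D was 2.13 (SE 0.82, adjusted p = 0.0781), and against NUP98-NSD1 it was 2.06 (SE 0.83, adjusted p = 0.185), though these groups did not overlap. Without NUP98-NSD1+NRASG12D replicate 1 both passed, with estimates of 3.02 (adjusted p = 0.0110) and 2.95 (adjusted p = 0.0269). Between NUP98-NSD1 and NRASG12D the log2 fold change was 0.07 (SE 0.18, adjusted p = 0.771), with its sign reversed under both other scalings.

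The sum of the neutrophil marker list had the library order of Ly6g inside the third group. It was 2908, 5910 and 16604 FPKM in replicates 1, 2 and 3 of NUP98-NSD1+NRASG12D. Retnlg, a late neutrophil gene, had 1.45, 19.5 and 356 FPKM, and S100a8, S100a9, Ngp and Lcn2 also had this order. Other markers did not, with 471, 502 and 370 FPKM for Mmp8, 31.6, 68.4 and 61.5 for Camp and 34.0, 297 and 274 for Ltf. In NUP98-NSD1 the list summed to 1149, 646 and 680 FPKM while Ly6g stayed at the level of NRASG12D. Of the 8 neutrophil markers, 7 were higher in NUP98-NSD1 than in NRASG12D, as were 42.2% of all tested genes. The exception was Retnlg (adjusted p = 0.0993). All 8 needed the fusion libraries to reach the filter, which favors a call of higher, so the share over all genes is not a like comparison. S100a8 and S100a9, which encode calprotectin, rose in NUP98-NSD1 by log2 fold changes of 7.52 and 6.92. The libraries with the most Ly6g were those with the most Retnlg. The part of neutrophil content in the Ly6g values was not tested.

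**Figure D4:**
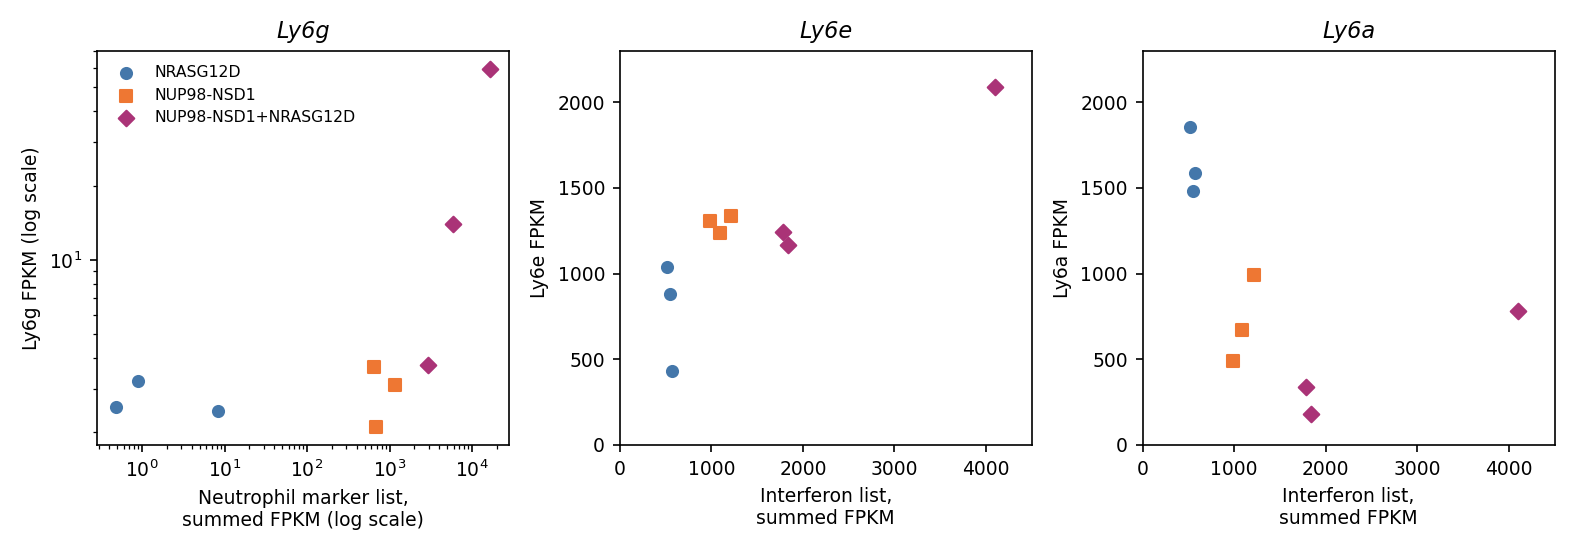
Ly6g against the summed FPKM of 8 neutrophil markers on log axes (left), and Ly6e (middle) and Ly6a (right) against the summed FPKM of 40 interferon genes on linear axes, with a symbol per library. Ly6g exceeds 4 FPKM in 2 libraries, those with the highest neutrophil sums of 5910 and 16604 FPKM, and Ly6e has its highest value, 2088 FPKM, at the highest interferon sum of 4095 FPKM.

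Ly6e (ENSMUSG00000022587.14, from 74955051 to 74959905 on the plus strand) encodes a broadly expressed, interferon-induced member. It had 880, 434 and 1037 FPKM in NRASG12D, 1307, 1236 and 1333 FPKM in NUP98-NSD1, and 1244, 2088 and 1169 FPKM in NUP98-NSD1+NRASG12D. Both fusion groups lay above NRASG12D in every library, and they overlapped with each other. The log2 fold change against NRASG12D was 0.81 (SE 0.30, adjusted p = 0.0553) in NUP98-NSD1 and 0.98 (SE 0.40, adjusted p = 0.0899) in NUP98-NSD1+NRASG12D, so neither passed. The first depended on single libraries, with an estimate of 0.43 (adjusted p = 0.0330) without NRASG12D replicate 2 and 1.06 (adjusted p = 0.0334) without NRASG12D replicate 3. Ly6e made up 19.7% to 51.1% of the members' summed FPKM in all 9 libraries, and it was in the top 146 genes of each.

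Ly6i (ENSMUSG00000022586.11, from 74979534 to 74983430 on the minus strand) lies between Ly6e and Ly6a and is a close relative of Ly6a. Its values were 11.3, 13 and 12.6 FPKM in NRASG12D, 7.49, 9.59 and 18.6 FPKM in NUP98-NSD1, and 11.7, 19.5 and 11.4 FPKM in NUP98-NSD1+NRASG12D. The groups overlapped in all comparisons, and the log2 fold changes of -0.14 (SE 0.29), 0.16 (SE 0.23) and 0.29 (SE 0.36) had adjusted p-values of 0.706, 0.607 and 0.715. Without NUP98-NSD1 replicate 3 the first became -0.49 and passed (adjusted p = 0.0195). Ly6i lies 11446 bp from Ly6a and shares 2.68% of its 50-base stretches with it, so reads of the abundant Ly6a could add to it. This was not tested.

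Ly6d (ENSMUSG00000034634.7, from 74762056 to 74763620 on the minus strand) is the lymphoid member, 191430 bp from Ly6e. It was at 0 in all 3 NRASG12D libraries, where 3 fragments would have given 0.114 to 0.180 FPKM, a limit that covers counting error only. In NUP98-NSD1 it had 0.109, 0.122 and 0.402 FPKM, of which only the last is above the level of 3 fragments. In NUP98-NSD1+NRASG12D it had 1.60, 0.264 and 0 FPKM. The 4 B cell markers summed to at most 1.47 FPKM and the 4 T or NK cell markers to at most 1.13 FPKM in any library. No difference of Ly6d was detectable (two-sided exact permutation p = 0.1, 0.400 and 0.700 in the order of comparisons above), and 0.1 is the smallest value possible.

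Summed over the 7 members, the FPKM were 2401, 2064 and 2941 in NRASG12D, 2560, 2501 and 2654 in NUP98-NSD1, and 3252, 4612 and 5946 in NUP98-NSD1+NRASG12D. The total overlapped between NRASG12D and NUP98-NSD1, yet its make-up did not. Ly6a gave 61.7% to 76.9% of it in the NRASG12D libraries, 19.2% to 37.4% under the fusion alone and 3.00% to 16.9% under both. Ly6c2 gave 0.0173% to 0.0487% and 9.23% to 23.9% in the first 2 groups, and in NUP98-NSD1+NRASG12D 41.4% in replicate 1, 61.8% in replicate 3 and least in replicate 2. Within each fusion group the library with the most Ly6a had less Ly6c2 than the library with the least Ly6a. This order did not hold for every pair of libraries. NUP98-NSD1+NRASG12D replicate 2 had more Ly6a than replicate 1, 779 against 337 FPKM, and slightly more Ly6c2, 1384 against 1345 FPKM. NUP98-NSD1 replicate 3 had the highest Ly6a and the lowest Ly6c1 and Ly6c2 of its group, and NUP98-NSD1+NRASG12D replicate 3 the reverse.

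**Figure D5:**
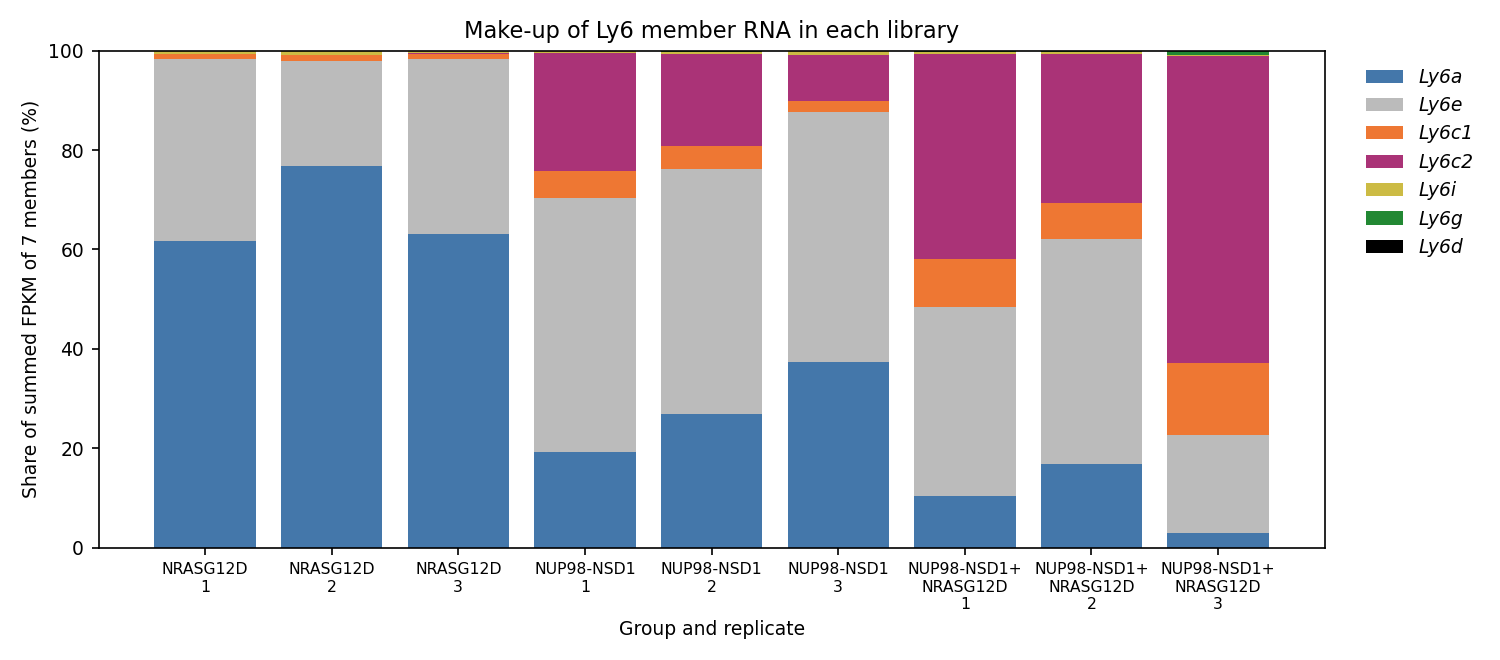
Share of each member in the summed FPKM of the 7 members (vertical axis, percent) for each library (horizontal axis), as stacked bars from 0 to 100%. Ly6a falls from 61.7% to 76.9% in NRASG12D to 3.00% in NUP98-NSD1+NRASG12D replicate 3, where Ly6c2 reaches 61.8%.

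Genes whose profiles lay closest to a member were found by the root-mean-square difference of gene-centered log2(FPKM + 1) values over the 9 libraries, among tested genes outside the family. For Ly6c2 they were S100a9 (0.67), Ngp (0.69) and S100a8 (0.72), all on the neutrophil marker list and under 4 FPKM in NRASG12D. Dnmt3l (0.25), Clec2i (0.26) and Hsd11b1 (0.27), which encodes an enzyme that activates glucocorticoids, came closest to Ly6c1. Nearest to Ly6g were AA467197 (0.36), Rhoj (0.38) and Smpdl3a (0.41), each with its maximum in NUP98-NSD1+NRASG12D replicate 3. Nearest to Ly6a were Fgl2 (0.28), which encodes a secreted fibrinogen-like protein, Twsg1 (0.30), a regulator of bone morphogenetic proteins, and Ankrd23 (0.31). Fgl2 had 208, 102 and 47.2 FPKM on average in the order of groups above. For Ly6e they were Galc (0.23), Mgat4a (0.29) and Gng7 (0.30), and for Ly6i Rttn (0.21), Gm26637 (0.22) and Trim14 (0.22), genes that varied little. Between members, Ly6c2 and Ly6a were the farthest apart, at 5.32, and Ly6e and Ly6i the closest, at 0.61. This measure grows with the size of changes, so genes that vary little lie close whether or not they move together. Ly6c1 and Ly6c2, with a near-constant ratio in the fusion libraries, lay 2.88 apart.

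In the interval that the members span there are 18 other annotated genes, 7 of them protein-coding, and 3 of the 18 reached the filter. Beside Ly6a2 these were Gm39556, a noncoding RNA upstream of Ly6e, and Gm5960, a pseudogene between Ly6c1 and Ly6c2. Gm39556 rose by a log2 fold change of 0.61 (adjusted p = 0.0236) in NUP98-NSD1 and 2.20 (adjusted p = 0.0189) in NUP98-NSD1+NRASG12D against NRASG12D. Gm5960 rose by 1.88 (adjusted p = 0.00420) and 2.69 (adjusted p = 0.0359), and had 55.3 FPKM in NUP98-NSD1+NRASG12D replicate 1 against at most 10.2 FPKM in the other libraries. The protein-coding Ly6k and Ly6g6g, in the part between Ly6d and Ly6e, were at most 0.0633 FPKM in any library.

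A list of 38 other genes with a Ly6 or uPAR domain held 5 that could be tested, and all 5 passed against NRASG12D in both fusion groups, 3 higher and 2 lower. Of all tested genes 52.1% passed in NUP98-NSD1 and 38.3% in NUP98-NSD1+NRASG12D. Plaur, the urokinase receptor, rose from 4.87 to 9.46 FPKM in NRASG12D to 21.8 to 28.6 FPKM in NUP98-NSD1 (log2 fold change 1.77, adjusted p = 0.00158) and 39.6 to 196 FPKM in NUP98-NSD1+NRASG12D (3.56, adjusted p = 0.00292). Cd177, a neutrophil surface protein, was at most 0.0632 FPKM in NRASG12D, 3.45 to 7.67 FPKM in NUP98-NSD1 and 15.9, 59.3 and 227 FPKM in NUP98-NSD1+NRASG12D. It needed the fusion libraries to reach the filter. Cd59a, which protects cells from complement, fell from 18.3 to 30.2 FPKM to 1.93 to 5.19 FPKM in NUP98-NSD1 (-2.49, adjusted p = 0.00124) and 0.311 to 2.11 FPKM in NUP98-NSD1+NRASG12D (-3.84, adjusted p = 0.000474). Its copy Cd59b fell with it, and Ly6a2 is the third gene that rose. None of the 5 passed between the fusion groups, where their adjusted p-values were 0.0504 to 0.212 and 3, Ly6a2, Plaur and Cd177, had log2 fold changes of 1.79 to 3.45.

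All Ly6 members are held by a GPI anchor, so the enzymes that build it bear on their place at the surface. Of 28 genes of anchor assembly 27 were tested. Against NRASG12D, 14 were higher and 1 lower in NUP98-NSD1, with a median log2 fold change of 0.34 beside 0.27 for all genes, and 5 were higher and 2 lower in NUP98-NSD1+NRASG12D, with 0.20 beside 0.23. Between the fusion groups 1 was higher and 1 lower. Of all tested genes 52.1%, 38.3% and 8.61% passed in these comparisons, in this order. Piga, part of the enzyme of the first step, rose by log2 fold changes of 1.07 (adjusted p = 0.00502) and 1.63 (adjusted p = 0.00225). Pgap2, which remodels the lipid of the anchor, rose by 0.56 (adjusted p = 0.00580) and 1.35 (adjusted p = 0.000629), and Pigz, which adds a side mannose, fell by 1.21 (adjusted p = 0.0234) and 2.66 (adjusted p = 0.00163) on the log2 scale. The abundant Dpm1, Gpaa1, Pigs and Pigx were at 44.1 FPKM or more in every library. The number called in NUP98-NSD1, 15 in all, was 7 after median-ratio scaling and 4 after quantile normalization.

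Of the 40 genes of interferon signaling and response, 38 were tested. Against NRASG12D, 27 were higher and 0 lower in NUP98-NSD1 and 34 were higher and 0 lower in NUP98-NSD1+NRASG12D, with median log2 fold changes of 0.99 and 2.19. Of all tested genes 42.2% and 24.2% were higher in these comparisons. Several genes of the list, among them Rtp4, needed the fusion libraries to reach the filter, which favors a call of higher. Rtp4 rose by 3.84 (adjusted p = 0.00104) and 6.32 (adjusted p = 0.000188), and Irf7, the factor that amplifies interferon production, by 3.39 (adjusted p = 0.000766) and 5.37 (adjusted p = 0.000876). Bst2 (tetherin) and Psmb8 (a subunit of the immunoproteasome) were the most abundant genes of the list with Jak1 and Ifngr1, and of these 4 Jak1 alone did not pass, at 62.7 to 87.2 FPKM. Between the fusion groups, where 8.61% of all tested genes passed, 2 of the list passed, Oas1a (2.18, adjusted p = 0.0303) and Gbp3 (1.56, adjusted p = 0.0394). Ly6a, described as an interferon-induced gene, was lower in both fusion groups while this list was higher. Within the fusion groups the order of libraries was mixed. The list summed to 991, 1090 and 1215 FPKM in NUP98-NSD1 replicates 1 to 3, where Ly6a had 492, 671 and 993 FPKM and Ly6i 7.49, 9.59 and 18.6 FPKM. Ly6e had 1307, 1236 and 1333 FPKM there, which is not this order. In NUP98-NSD1+NRASG12D replicate 2, with the highest interferon sum, Ly6a, Ly6e and Ly6i were each the highest of their group. Replicate 3 had a slightly higher sum than replicate 1, 1838 against 1780 FPKM, but less Ly6a, Ly6e and Ly6i. The part of interferon in the levels of the members was not tested.

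Markers of other cell types moved between the groups as well. Of 6 granulocyte-monocyte progenitor markers 6 were higher in either fusion group than in NRASG12D, as were 6 of 7 monocyte or macrophage markers, among them Csf1r and Ccr2. Cx3cr1, also on that list, passed only as lower in NUP98-NSD1+NRASG12D (log2 fold change -2.15, adjusted p = 0.00200). Of all tested genes 42.2% were higher in NUP98-NSD1 and 24.2% in NUP98-NSD1+NRASG12D, each against NRASG12D. Ctsg, Ccr2, Adgre1 and Cx3cr1 reached 1 FPKM in every NRASG12D library. The other markers of both lists needed the fusion libraries to reach the filter, which favors a call of higher. F13a1, a monocyte gene, had 0.474 to 1.23 FPKM in the NRASG12D libraries, 46.4 to 129 FPKM under the fusion alone and 269 to 616 FPKM under both. The monocyte or macrophage list summed to 37.4 to 45.0, 240 to 382 and 685 to 1168 FPKM, without overlap and in the same order of groups as Ly6c2. Kit, the SCF receptor, which stem cells share with mast cells, followed the order of Ly6a, with 982 to 1119, 382 to 561 and 8.27 to 70.7 FPKM. Cd34, from the same list of 5 blood cell genes, did not, with 307 to 341, 400 to 492 and 9.53 to 117 FPKM. It was higher in NUP98-NSD1 than in NRASG12D (log2 fold change 0.43, adjusted p = 0.0119). Of the others on that list, Laptm5 was also highest in NRASG12D, and Spi1 was lowest there. Of the stem cell markers 3 of 5 were tested, and Meis1, Mecom and Hlf were all lower in NUP98-NSD1+NRASG12D than in either other group. Of all tested genes 14.1% were lower there against NRASG12D and 6.31% against NUP98-NSD1. Mecom and Hlf reached the filter only through the other groups, which favors a call of lower. Between NUP98-NSD1 and NRASG12D none of these 3 markers was lower, and Hlf was higher (log2 fold change 1.36, adjusted p = 0.00277). Erythroid markers summed to at most 49.4 FPKM in any library, and megakaryocyte markers to 479 to 563, 242 to 301 and 81.0 to 1241 FPKM, the last in NUP98-NSD1+NRASG12D replicate 2. The part of each cell type in the levels of Ly6a, Ly6c2 and Ly6g was not tested.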

How the data were processed

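RNA-seq libraries were paired-end with reads of 50 bp. The submitters' processing notes name STAR 2.7.2a, Cufflinks 2.2.1 and GRCm38.p6, and the methods name GENCODE M22. The FPKM deposited by the authors are 1 value per gene and library, and the handling of reads with several alignments and of strand is not given in the sources used here. Columns of the tables other than FPKM were not used.

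Groups and replicate numbers were taken from the sample labels. The members, the gene lists and the tests were chosen with earlier results of these data known. Values of repeated identifiers were summed. FPKM were tested as log2(FPKM + 1), which understates changes of low genes, with limma 3.58.1 in R 4.3.3 (lmFit, eBayes with trend), each pair of groups on its 6 libraries, without a block, and Benjamini-Hochberg adjustment over the 13493 genes that reached 1 FPKM in 3 or more libraries. DESeq2, which the methods name for counts, was not run on FPKM. Simulated data had 200 changed genes among 13493, drawn from those with a mean log2(FPKM + 1) above 2. Changes of 2 on the log2 scale were found in 95.5%, 83.5% and 82.5% of cases in the 3 comparisons in the order of the report. Changes of 1 were found in 76%, 19.5% and 25.5%. Of the simulated calls, for changes of 1 to 3, 1.76% to 7.27% were false. The real comparisons called larger shares of genes, 52.1%, 38.3% and 8.61%, so these rates need not hold there. For single values every split of the 6 libraries was enumerated (exact permutation, two-sided), and 3 against 3 cannot go under p = 0.1.

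Depth came from 3386 genes that have 1 transcript of over 2500 bp, where 77.3% to 81.3% of low values fell within 0.1 fragments of a whole step. On simulated counts the estimate was off by at most 0.891%. Transcripts and coordinates are from GENCODE M21, in which 54867 of the 55274 identifiers have equal coordinates, and promoters are from RefSeq. Deviations from the group mean correlated at -0.177 to 0.160 between same-numbered libraries. With 3 libraries per group this check cannot tell whether the numbers pair libraries, and the labels do not say. Named are the members, Nras, Nup98, Nsd1, the tested genes of the interval, from each list up to 4 of the most abundant genes and up to 3 of the largest calls per comparison, with other genes of the lists named after their values were seen, and the 3 genes nearest to each member. Python 3.11.15, numpy 2.4.6, pandas 2.3.3, scipy 1.17.1, Biopython 1.88 and matplotlib 3.10.9 were used. Alternatives were another pseudocount of 0.1, no filter, quantile normalization, median-ratio scaling, array weights, all 9 libraries in one fit, a replicate block, the sum of Ly6c1 and Ly6c2, and fits without each library. The mast cell sum without Cpa3 was chosen after seeing the data.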

Additional observations from a re-analysis of the deposited data

How the results depend on the processing

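The calls of Ly6c1 and Ly6c2 against NRASG12D held under every alternative, and those of Ly6a under all but the 3 given in the report. Between the fusion groups, where 2 members passed, 1 passed with a pseudocount of 0.1, and 0 without the filter on low values, where Ly6c1 had an adjusted p of 0.158 and Ly6c2 of 0.174. With the replicate block 0 passed (adjusted p = 0.0659 and 0.0797), and without single libraries 0 to 3 passed. In a fit of all 9 libraries 5 members passed in NUP98-NSD1+NRASG12D against NRASG12D in place of 3, with Ly6e at an adjusted p of 0.0410 and Ly6g at 0.0387. The replicate block gave 6864, 4531 and 801 calls over all genes beside 7036, 5173 and 1162, and it added Ly6e between NUP98-NSD1 and NRASG12D (adjusted p = 0.0399) and Ly6g in NUP98-NSD1+NRASG12D against NRASG12D (0.0355). Array weights added Ly6e (0.0296) in the first comparison and Ly6g in the others (0.00262 and 0.0108). The cause of these changes was not tested.

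Counts over all genes moved by more than 1.5 times in the fit of all 9 libraries, to 3065 in the first comparison and 2251 in the third, and in the third also with array weights, to 3500, and without the filter, to 152. Without single libraries the counts ran from 2941 to 6327 in NUP98-NSD1+NRASG12D against NRASG12D, lowest without NRASG12D replicate 3, and from 283 to 2509 between the fusion groups, lowest without NUP98-NSD1 replicate 3. Gene lists moved with them. In the first comparison the fit of all 9 libraries called 9 genes of anchor assembly in place of 15 and 16 interferon genes in place of 27. In the second the anchor list ran from 3 to 13 beside 7, with 4 under the replicate block, and the interferon list fell to 22 beside 34 without the filter. Between the fusion groups the alternatives called 0 to 21 interferon genes beside 2, 0 to 6 of the anchor list beside 2 and 0 to 4 of the other family genes beside 0.

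Signs turned for small differences that did not pass. Ly6g between NUP98-NSD1 and NRASG12D was -0.16 after median-ratio scaling, -0.29 after quantile normalization and -0.06 to 0.23 without single libraries. Ly6i in the same comparison was -0.49 to 0.12 without single libraries. In NUP98-NSD1+NRASG12D against NRASG12D, Ly6i was -0.03 after median-ratio scaling, -0.10 after quantile normalization and -0.08 to 0.28 without single libraries. Between the fusion groups Ly6e was -0.0022 after quantile normalization and -0.10 to 0.32 without single libraries. FPKM carry no counts, so precision at low levels, as for Ly6d and Ly6c2 in NRASG12D, rests on estimated depth.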
